A study of Mus musculus with 4 samples.

Results

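The p53 transcription factor, the MDM2 and MDM4 proteins that restrain it and 7 genes known as its targets or partners were followed in B16 cells, a mouse melanoma cell line. The genes were found by symbol in the count table: Trp53, Mdm2, Mdm4, Cdkn1a, Trp53inp1, Perp, Sesn1, Plk3, Bbc3 and Ccng1, which are 10 of 53465 gene rows. All 10 passed the filter on low counts and stood among 13664 tested genes. Poly(A) RNA was sequenced from 2 libraries of cells treated for 4 h with EM-plasma (in the labels, exosome-mimetic nanovesicles (EMs)-treated plasma) and from 2 control libraries. Neither the nature of the plasma nor the handling and collection time of the controls is stated. Separate cultures are not stated either, so a p-value here reflects how far these particular libraries scatter, and that scatter may be technical. The p53 genotype of the cells was not analysed here.

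The p53 protein is kept scarce by MDM2, a ubiquitin ligase that marks it for degradation, and by the related MDM4, which masks its activation domain. DNA damage and other stresses release p53, largely by modifying the protein, so its activity is usually read from its target genes rather than from its own transcript. The targets act in growth arrest (Cdkn1a), cell death (Bbc3, Perp), stress and nutrient signalling (Sesn1) and feedback on p53 itself (Mdm2, Ccng1).

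Total counts were 46295133 and 46557637 in EM-plasma libraries, and 47664388 and 49367932 in controls. All 7 melanocyte markers looked up had reads, and their summed level was 11128 to 11329 CPM (counts scaled to a common library total) in EM-plasma libraries and 10988 to 11065 CPM in controls. The endothelial, keratinocyte and erythroid lists each summed to at most 0.215 CPM in EM-plasma libraries and at most 0.305 CPM in controls, with Cdh5, Kdr, Krt1, Krt10, Alas2, Hbb-bs, Hbb-bt and Hba-a2 at 0 reads in every library. The leukocyte and macrophage list summed to 1.59 to 1.93 CPM in EM-plasma libraries and 1.2 to 1.69 CPM in controls, most of it Cd68, with Ptprc, Adgre1 and Itgam at 0. The fibroblast list summed to 29.3 to 30.4 CPM in EM-plasma libraries and 27.6 to 29.3 CPM in controls, mostly Col1a2. The part of such RNA in the results was not tested. In bulk RNA, fewer cells expressing a gene and less of its RNA per cell cannot be told apart. The pseudogene rows Trp53-ps and Mdm4-ps held at most 1 read in a library.

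Of the 10 genes, 1 rose and 3 fell in EM-plasma-treated cells. Plk3, a stress-responsive polo-like kinase gene, was 1.26-fold higher. Trp53inp1, which encodes a nuclear partner of p53, was 1.26-fold lower, Sesn1, a sestrin gene, 1.21-fold lower, and Perp, a membrane protein gene of the death response, 1.16-fold lower. Cdkn1a and Mdm2, targets often used to read p53 activity, did not pass the test, with Cdkn1a (the cell cycle inhibitor p21) at 0.998-fold and Mdm2 at 1.11-fold. A gene was called where edgeR's quasi-likelihood test gave an adjusted p below 0.05, with p-values adjusted over all tested genes by the Benjamini-Hochberg method. Unless another tool is named, adjusted p-values are from that test. Of all tested genes, 3.34% were called higher and 2.88% lower. The calls of Plk3, Sesn1 and Perp were lost in each of the 4 fits without a library, and that of Trp53inp1 held without control 1 or EM-plasma 2 only. All 4 calls also ended when genes with few reads were kept in the fit, with adjusted p from 0.167 to 0.366. Both EM-plasma libraries lay on one side of both controls in 8 of the 10 genes, 3 above and 5 below. Of all tested genes 49.1% did so, 24.3% above and 24.8% below.

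**Figure D1:**
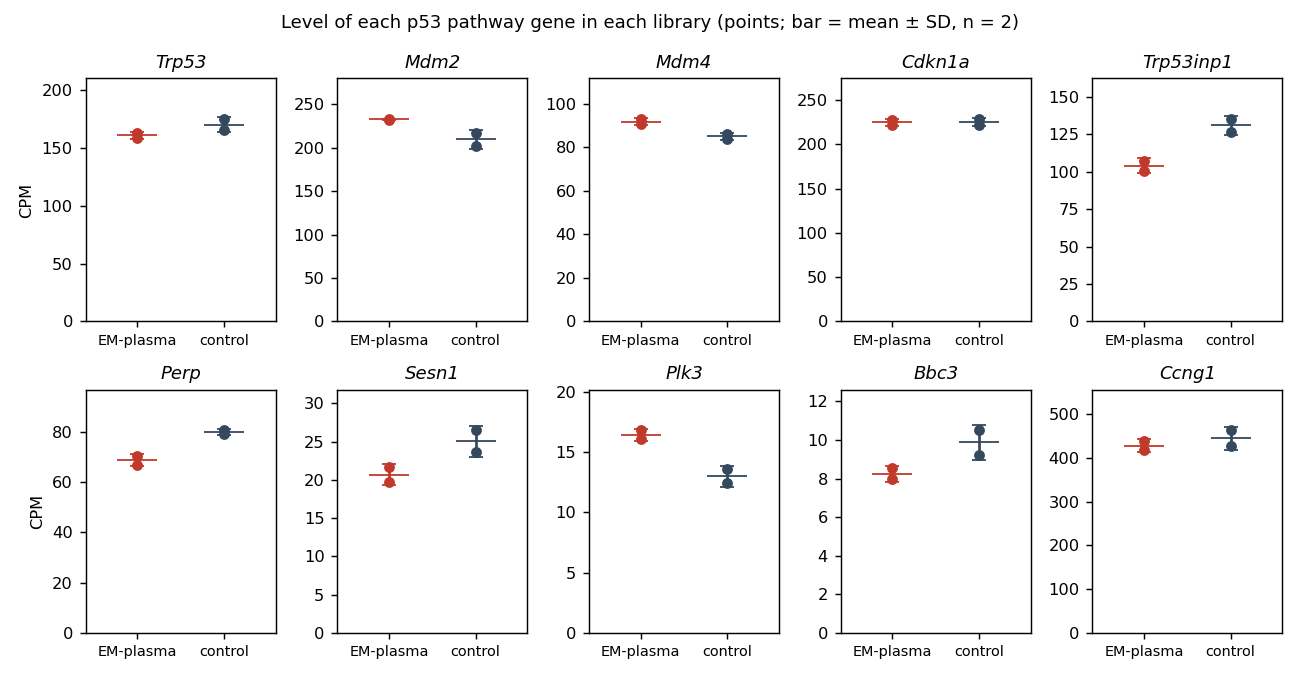
CPM of each of the 10 genes (vertical axes, each from 0) in the 2 EM-plasma libraries and the 2 control libraries (points), with the group mean and SD. Trp53inp1, Perp, Sesn1, Bbc3 and Trp53 have both EM-plasma points below both control points, Plk3, Mdm2 and Mdm4 above, and Cdkn1a and Ccng1 overlap.

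Promoter sequences from RefSeq (GRCm38.p6, 250 bases before to 50 after a gene start, written 5′ to 3′ on the gene's strand) were matched by symbol for 8 of the 10 genes. They were searched on both strands for the p53 half-site consensus, the 10-base unit that p53 binds in tandem. It was found in a window of 5 of the 8 genes (Trp53, Mdm2, Cdkn1a, Sesn1 and Ccng1), against 9.55% of 27025 genes with a window. By window the count was 5 of 13, against 8.36% of 32851. A match is a description of these letters and no measure of binding, and these genes were chosen for their known place in the p53 pathway. Below are the windows of Plk3 and of Sesn1, called in opposite directions, beside those of Cdkn1a and Mdm2, which were not called. Capitals mark an exact match to the consensus, and near matches, also those next to a marked stretch, are left unmarked.
Plk3, chr4:117133914-117134213, minus strand: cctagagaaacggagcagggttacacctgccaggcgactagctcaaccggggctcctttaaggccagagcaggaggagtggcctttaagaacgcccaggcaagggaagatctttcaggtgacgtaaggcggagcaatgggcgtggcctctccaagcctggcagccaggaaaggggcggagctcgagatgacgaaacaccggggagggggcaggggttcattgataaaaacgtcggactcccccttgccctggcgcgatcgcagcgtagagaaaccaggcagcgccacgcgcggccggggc
Sesn1, chr10:41887189-41887488, plus strand: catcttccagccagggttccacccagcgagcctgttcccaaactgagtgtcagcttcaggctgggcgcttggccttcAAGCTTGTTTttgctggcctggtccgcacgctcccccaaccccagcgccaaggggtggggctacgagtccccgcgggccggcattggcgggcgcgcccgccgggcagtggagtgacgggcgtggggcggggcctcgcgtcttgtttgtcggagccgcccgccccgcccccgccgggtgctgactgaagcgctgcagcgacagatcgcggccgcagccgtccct
Cdkn1a, chr17:29090729-29091028, plus strand: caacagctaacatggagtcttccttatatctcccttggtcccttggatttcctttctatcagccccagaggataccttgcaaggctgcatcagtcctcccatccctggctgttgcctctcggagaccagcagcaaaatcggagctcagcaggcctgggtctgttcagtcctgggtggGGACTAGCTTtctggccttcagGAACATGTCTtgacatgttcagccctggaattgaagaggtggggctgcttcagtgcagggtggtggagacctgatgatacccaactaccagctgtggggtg
Mdm2, chr10:117710709-117711008, minus strand: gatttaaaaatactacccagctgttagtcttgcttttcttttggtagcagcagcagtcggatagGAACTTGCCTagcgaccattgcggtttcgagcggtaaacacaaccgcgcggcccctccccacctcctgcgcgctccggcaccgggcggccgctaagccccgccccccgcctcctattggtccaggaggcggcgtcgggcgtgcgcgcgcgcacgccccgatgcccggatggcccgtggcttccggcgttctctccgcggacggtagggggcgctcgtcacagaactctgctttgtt
The Cdkn1a window holds 2 matches, which begin 73 and 51 bases before the start with 12 bases between them. Of all windows, 0.359% hold 2 or more. The Sesn1 match begins 173 bases and the Mdm2 match 186 bases before the start, and the Plk3 window holds 0. Sesn1 and Cdkn1a each have another window in the table, and Sesn1's other window and Cdkn1a's other window hold 0.

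Trp53 (chromosome 11, 69580359 to 69591873 on GRCm38, ENSMUSG00000059552), the gene of p53 itself, had 163 and 159 CPM in EM-plasma libraries 1 and 2, against 175 and 165 CPM in control libraries 1 and 2. The EM-plasma libraries were both lower than the controls, with little room between the groups. Its log2 fold change was -0.081 (SE 0.048, 95% interval -0.18 to 0.019, adjusted p = 0.38), and the gene was not called. Trp53 ranked high among tested genes per length of exon, at the 90.2 percentile.

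Mdm2 (chromosome 10, 117688875 to 117710758, ENSMUSG00000020184), both the ligase that degrades p53 and a target of it, had 233 and 232 CPM in EM-plasma libraries, against 201 and 217 CPM in controls. Both EM-plasma libraries stood above both controls and nearly coincided. This gave a log2 fold change of 0.15 (SE 0.047, 95% interval 0.055 to 0.25), and at adjusted p = 0.0529 the gene stood just outside the threshold. It passed with RLE scaling (adjusted p = 0.0447), library totals alone (adjusted p = 0.0342) or replicate number as a block (adjusted p = 0.00408). It did not pass with DESeq2 (adjusted p = 0.0749), limma voom (adjusted p = 0.0526) or no low-count filter (adjusted p = 0.377). Leaving out a library gave Mdm2 log2 fold changes from 0.094 to 0.21. Mdm4 (chromosome 1, 132959484 to 133030561, ENSMUSG00000054387), its relative without strong ligase activity of its own, had 90.5 and 92.9 CPM in EM-plasma libraries, against 83.9 and 86.2 CPM in controls. The order of the groups was the same as for Mdm2, and the gene was not called (log2 fold change 0.11, SE 0.053, adjusted p = 0.26).

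Reads of a restrainer over reads of Trp53 in the same library do not depend on how libraries are scaled. There were 1.43 and 1.46 reads of Mdm2 per read of Trp53 in EM-plasma libraries, against 1.15 and 1.31 in controls. For Mdm4 these ratios were 0.555 and 0.585 in EM-plasma libraries, against 0.479 and 0.521 in controls. Both ratios were higher in each EM-plasma library than in either control. That order adds nothing new, since Trp53 was lower and Mdm2 and Mdm4 higher in both EM-plasma libraries than in both controls. With 2 libraries against 2 the exact permutation test (two-sided) gave p = 0.333 for each of the 2 ratios, the smallest p this design allows. The ratio of Mdm2 to Mdm4 reads was 2.58 and 2.5 in EM-plasma libraries and 2.4 and 2.52 in controls, and here the groups overlapped (exact permutation p = 0.667).

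Per kilobase of exon, where genes can be set side by side, the most abundant was Ccng1 at 122 CPM per kb in EM-plasma libraries and 127 in controls, followed by Cdkn1a at 63.3 and 63.4. Mdm2, Trp53 and Perp came next and lay close together. In controls Trp53 averaged 42.1, Mdm2 41.2 and Perp 40.9 CPM per kb, and the libraries of these genes overlapped. In EM-plasma libraries Mdm2 averaged 45.8, Trp53 39.8 and Perp 35.2 CPM per kb, with no overlap between them. Trp53inp1 followed at 16 CPM per kb in EM-plasma libraries and 20.2 in controls. At the low end Plk3 stood at 6.5, Mdm4 at 6.2, Sesn1 at 5.18 and Bbc3 at 3.88 CPM per kb in EM-plasma libraries, against 5.13, 5.75, 6.29 and 4.65 in controls. Plk3, Mdm4 and Sesn1 thus stood in the opposite order in the groups' means, and libraries of Plk3 and Bbc3 overlapped in controls. Differences between genes were not tested. These levels divide by all annotated exons of a gene, which for Mdm4 sum to 14798 bases, so they are lower where long exons are little used.

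**Figure D2:**
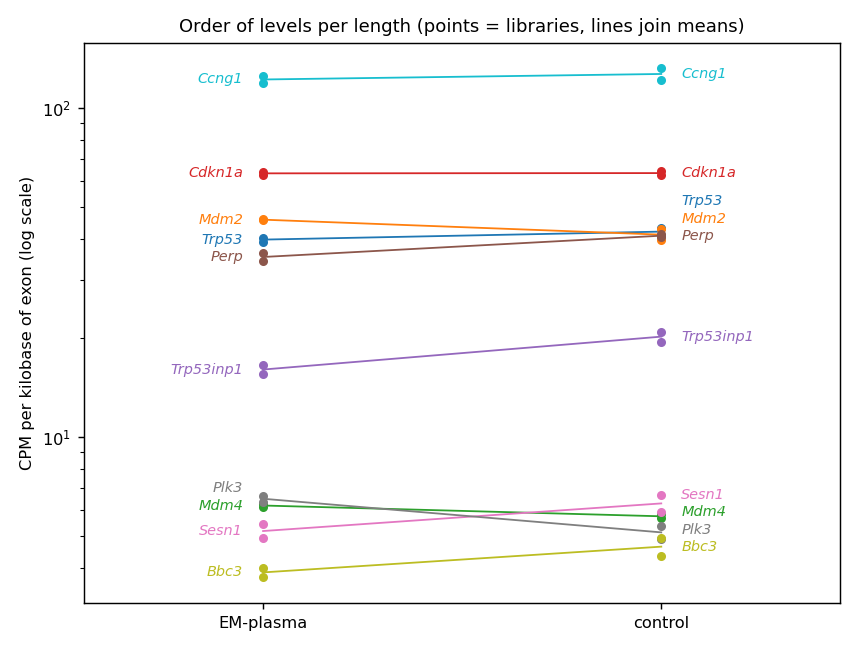
CPM per kilobase of annotated exon (log scale) of the 10 genes in EM-plasma and control libraries (points), with lines between the group means. Mdm2, Trp53 and Perp are apart in EM-plasma libraries and overlap in controls, and Plk3 and Sesn1 change places around Mdm4.

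Cdkn1a (chromosome 17, 29090976 to 29100727, ENSMUSG00000023067) encodes p21, which stops the cell cycle by inhibiting cyclin-dependent kinases and is the best known p53 target. It had 228 and 222 CPM in EM-plasma libraries, against 229 and 222 CPM in controls. The groups overlapped almost completely. The log2 fold change was -0.0027 with a 95% interval from -0.096 to 0.09 (adjusted p = 0.984), so the interval ran from 0.936-fold to 1.06-fold. An opposite-strand gene that shares 273 exonic bases with Cdkn1a was not analysed here. Ccng1 (chromosome 11, 40748552 to 40755311, ENSMUSG00000020326), cyclin G1, a target that feeds back on MDM2 through a phosphatase, had 418 and 439 CPM in EM-plasma libraries, against 427 and 464 CPM in controls. Its groups overlapped as well, with a log2 fold change of -0.056 and an interval from -0.15 to 0.037 (adjusted p = 0.548).

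Plk3 (chromosome 4, 117128655 to 117133963, ENSMUSG00000028680) encodes a polo-like kinase that responds to stress and can phosphorylate p53 in human cells. It had 16.8 and 16.1 CPM in EM-plasma libraries, against 13.6 and 12.4 CPM in controls. Both EM-plasma libraries were above both controls, and the gap between the groups was wider than the gap within either. Its log2 fold change was 0.34 (SE 0.091, adjusted p = 0.0218), the largest in size among the 10 genes. DESeq2 did not call it (adjusted p = 0.0988), and leaving out a library gave log2 fold changes from 0.28 to 0.41 with adjusted p from 0.0566 to 0.291. Exons of Tctex1d4, on the opposite strand, share 84 bases with those of Plk3, and that row held 2 to 10 reads per library against 587 to 783 for Plk3.

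Trp53inp1 (chromosome 4, 11156431 to 11174379, ENSMUSG00000028211) encodes a stress-induced protein that works with p53 in the nucleus and takes part in autophagy in the cytoplasm. It had 100.4 and 107 CPM in EM-plasma libraries, against 126 and 135 CPM in controls. All EM-plasma values were well under the control values. The log2 fold change was -0.33 (SE 0.053, adjusted p = 0.000135). It remained called without control 1 (adjusted p = 0.0279) and without EM-plasma 2 (adjusted p = 0.00273), and not without control 2 (adjusted p = 0.105) or EM-plasma 1 (adjusted p = 0.061). Its paralog Trp53inp2, an autophagy gene, fell as well, with 103 ± 1.01 CPM in EM-plasma libraries and 121 ± 1.04 CPM in controls (SD, n = 2 each; log2 fold change -0.23, adjusted p = 0.00499), and its call held without control 1 only (adjusted p = 0.0435). Trp53inp1 had 0.978 and 1.03 reads per read of Trp53inp2 in EM-plasma libraries, against 1.04 and 1.12 in controls.

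Perp (chromosome 10, 18845020 to 18857073, ENSMUSG00000019851) encodes a tetraspan membrane protein that promotes p53-dependent death in mouse fibroblasts and holds desmosomes together in mouse skin. It had 70.6 and 67 CPM in EM-plasma libraries, against 79 and 80.7 CPM in controls. The gap between the groups was again wider than the gap within either. The log2 fold change was -0.21 (SE 0.056, adjusted p = 0.0188). Leaving out a library gave log2 fold changes from -0.25 to -0.18 and adjusted p from 0.0632 to 0.509. Bbc3 (chromosome 7, 16308393 to 16318205, ENSMUSG00000002083), the gene of PUMA, which disables the BCL2 family of survival proteins, had 7.96 and 8.53 CPM in EM-plasma libraries, against 10.5 and 9.24 CPM in controls. Both EM-plasma values were lower than both control values. With 371 to 517 reads per library it was the least abundant of the 10 genes and had the widest interval (log2 fold change -0.26, 95% interval -0.49 to -0.031, adjusted p = 0.181), and it was not called.

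Sesn1 (chromosome 10, 41809935 to 41908424, ENSMUSG00000038332) encodes sestrin 1, which restrains the nutrient kinase mTORC1 and is induced through p53 and FOXO factors. It had 19.7 and 21.6 CPM in EM-plasma libraries, against 23.6 and 26.5 CPM in controls. The groups did not overlap, although EM-plasma 2 and control 1 stood close. On the log2 scale the fold change was -0.28, with SE 0.079 and adjusted p = 0.0329. DESeq2 did not call it (adjusted p = 0.121), and leaving out a library gave log2 fold changes from -0.36 to -0.19 with adjusted p from 0.0607 to 0.546. Its paralog Sesn2, induced by ATF4 and NRF2 as well as by p53, had a log2 fold change of 0.15 (adjusted p = 0.16) and was not called. Sesn1 had 0.404 and 0.441 reads per read of Sesn2 in EM-plasma libraries, against 0.526 and 0.612 in controls. Each EM-plasma ratio was below each control ratio (exact permutation p = 0.333, the smallest this design allows). This order also adds nothing new, since Sesn1 was lower and Sesn2 higher in both EM-plasma libraries than in both controls. Sesn3, a FOXO target, had a log2 fold change of -0.14 (adjusted p = 0.101).

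**Figure D3:**
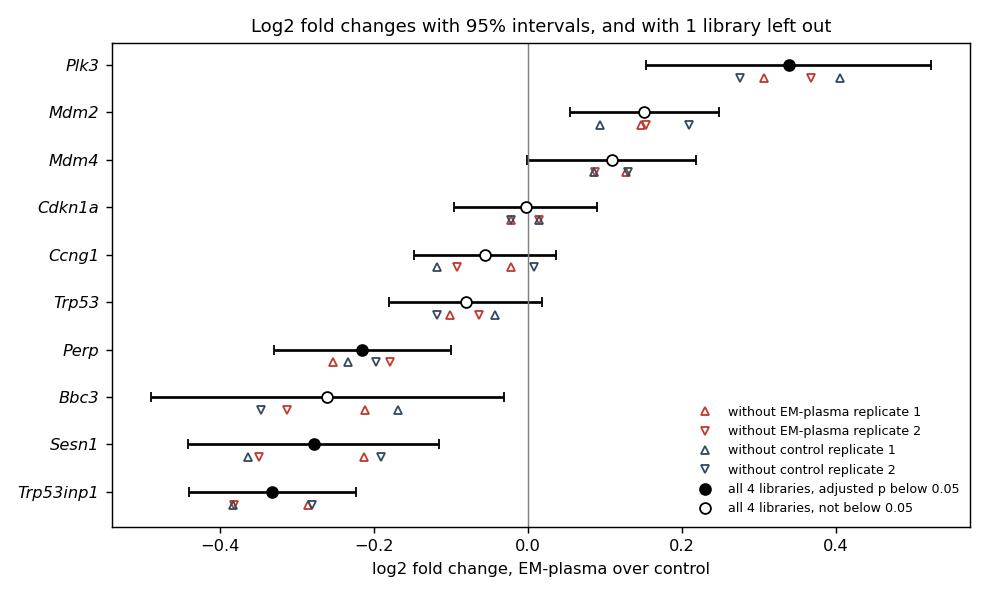
Log2 fold change of EM-plasma over control for each of the 10 genes (circles, filled where the adjusted p was below 0.05) with 95% intervals, and the value with each library left out (triangles below). Plk3, Trp53inp1, Sesn1 and Perp keep their side of 0 whichever library is left out, while Cdkn1a and Ccng1 cross it. That difference nearly follows from the groups, which overlap for Cdkn1a and Ccng1 and not for the other genes.

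Other genes of the pathway were taken from lists by role, and the counts here leave out the 10 genes above. Of 25 tested modifiers and partners of p53, 0 were called higher and 1 lower, against 3.34% and 2.88% of all tested genes. The median log2 fold change was 0.012, against -0.0027 over all tested genes. The unadjusted p of 5 of the 25 was below 0.05, against 19.5% of all tested genes. The gene called was Hipk2, a kinase that phosphorylates p53, at 310 ± 6.94 CPM in EM-plasma libraries and 346 ± 26.3 CPM in controls (SD, n = 2 each; log2 fold change -0.16, adjusted p = 0.0442). It lost its call in each fit without a library, with library totals alone (adjusted p = 0.0631) and with DESeq2 (adjusted p = 0.0579). Trim28, a corepressor that works with MDM2 and the gene with the highest CPM of the list, a scale not corrected for length, had 409 ± 0.497 CPM in EM-plasma libraries and 404 ± 18.3 CPM in controls. The damage kinases Atm and Atr had log2 fold changes of -0.098 and -0.081 (adjusted p = 0.328 and 0.526), and their relays Chek1 and Chek2 -0.15 and 0.028 (adjusted p = 0.194 and 0.865).

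Of 7 other tested targets of growth arrest, 0 were called in either direction by edgeR and 0 by DESeq2, with a median log2 fold change of 0.092. The unadjusted p of 2 of the 7 was below 0.05, as it was for 19.5% of all tested genes. Those 2 were Sfn, the checkpoint protein 14-3-3 sigma (log2 fold change 0.35, adjusted p = 0.19), and Gadd45a, a growth arrest gene also induced by ATF4 (log2 fold change 0.28, adjusted p = 0.13). Zmat3, an RNA-binding protein gene, had the highest CPM of the list (not corrected for length), at 223 ± 1.62 CPM in EM-plasma libraries and 232 ± 2.79 CPM in controls (log2 fold change -0.058, adjusted p = 0.526).

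Of 12 other tested targets of cell death, 0 were called in either direction by edgeR and 0 by DESeq2, with a median log2 fold change of -0.016. The unadjusted p of 3 of the 12 was below 0.05, beside the same 19.5% of all tested genes. Bax, the pore-forming executioner of mitochondrial death, had a log2 fold change of 0.092 (adjusted p = 0.353). Ei24, an endoplasmic reticulum protein gene with the highest CPM of the list (not corrected for length), had 137 ± 2.69 CPM in EM-plasma libraries and 143 ± 1.33 CPM in controls (adjusted p = 0.531). Pmaip1, which encodes the death activator NOXA, and Dapk1 had 0 reads in all libraries, which allows up to 3 reads, or 0.0643 to 0.0644 CPM in an EM-plasma library and 0.0609 to 0.0633 CPM in a control. The death receptor gene Fas had 3 and 4 reads in EM-plasma libraries and 3 and 0 in controls and was not tested.

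Of 19 other tested targets of repair and metabolism, 6 had an unadjusted p below 0.05, against 19.5% of all tested genes. The median log2 fold change was 0.028. Of the 19, 0 were called higher and 3 lower, against 3.34% and 2.88% of all tested genes. Those were Ddit4, an mTORC1 inhibitor also induced by hypoxia and ATF4 (log2 fold change -0.31, adjusted p = 0.0133), Pltp, a phospholipid transfer protein gene (-0.25, adjusted p = 0.0307), and Pcna, the sliding clamp of DNA replication (-0.15, adjusted p = 0.033). Pcna also had the highest CPM of the list, at 299.6 ± 2.44 CPM in EM-plasma libraries and 332 ± 4.71 CPM in controls. Pltp lost its call in each fit without a library (adjusted p 0.0839 to 0.405), the call of Ddit4 held without EM-plasma 2 only (adjusted p = 0.0215) and the call of Pcna without control 1 only (adjusted p = 0.0435). The 5 genes Hipk2, Ddit4, Pltp, Pcna and Trp53inp2 all lost their calls when genes with few reads were kept, with adjusted p from 0.163 to 0.426.

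**Figure D4:**
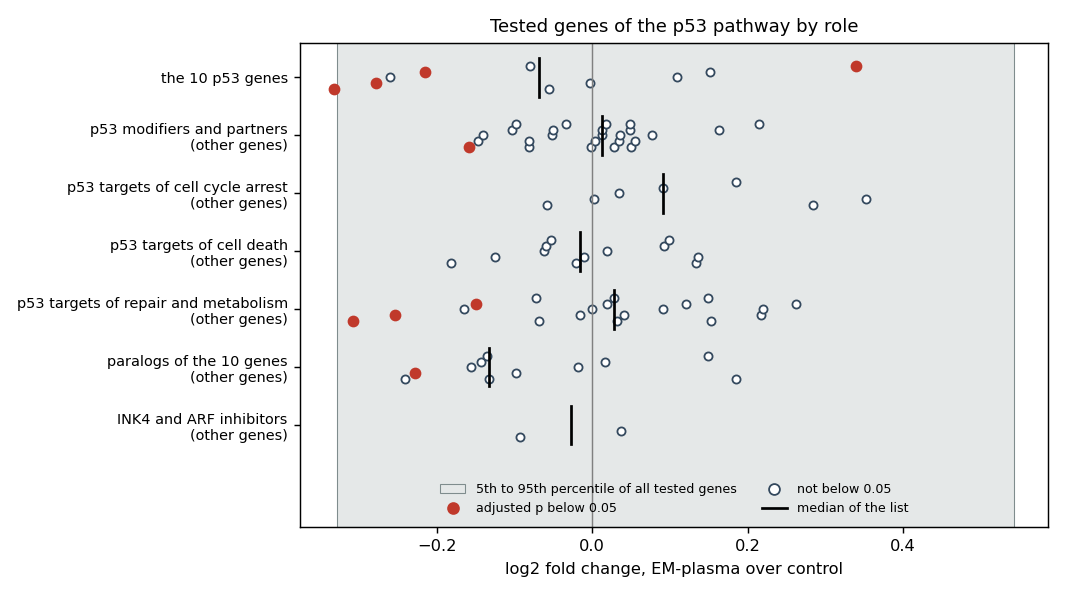
Log2 fold changes of EM-plasma over control for the tested genes of each role (points, red where the adjusted p was below 0.05), with the median of each list and, in grey, the 5th to 95th percentile of all tested genes. The other targets of arrest and death hold 0 red points, the repair and metabolism list holds 3 below 0, and Plk3 is the single red point above 0.

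The list of paralogs of the 10 genes also holds the death genes Bcl2l11, Bmf, Hrk and Pmaip1, relatives of Bbc3 in role. Of its 17 genes 11 were tested, of which 0 were called higher and 1, Trp53inp2, lower, with a median log2 fold change of -0.13. Plk1, the mitotic polo-like kinase and the one with the highest CPM, had 190 ± 5.62 CPM in EM-plasma libraries and 208 ± 2.94 CPM in controls (log2 fold change -0.13, adjusted p = 0.0883). Plk2, the relative closest to Plk3 in its response to stress, had a log2 fold change of 0.18 (adjusted p = 0.373). Plk3 had 1.2 and 1.32 reads per read of Plk2 in EM-plasma libraries, against 1.35 and 0.959 in controls, so these ratios overlapped. Of the other p53 family genes, Trp63 had 0 reads in every library, and Trp73 had 5 and 1 reads in EM-plasma libraries against 0 and 1 in controls. Sesn2, Plk2 and Pmaip1 stand in this list as well as in one of the target lists.

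Of the INK4 and ARF genes, Cdkn2a, whose ARF product holds MDM2 away from p53 and whose p16 product inhibits cyclin D kinases, had 0 reads in all 4 libraries, and so did its neighbour Cdkn2b. Each 0 allows up to 3 reads per library. The kinase inhibitor genes Cdkn2c and Cdkn2d were expressed and not called, with log2 fold changes of -0.093 and 0.037 (adjusted p = 0.407 and 0.811). Cdkn2c had 56.9 ± 0.837 CPM in EM-plasma libraries and 60.7 ± 0.53 CPM in controls (SD, n = 2 each).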

How the data were processed

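Total RNA was extracted from B16 cells, and poly(A) libraries were prepared by a strand-keeping Illumina kit, per the labels' protocols. The deposited counts are raw reads for each Ensembl gene in each of the 4 libraries, not pooled. The submitters' processing notes name GRCm38 with CASAVA, TopHat2 2.1.1, HTSeq and edgeR. What annotation release, strand setting and filters were used is not given in the sources used here. A scaled signal per library was also deposited by the authors. It equalled the counts times 1 constant in every library to within 1.82e-06% and was used only as a check of the columns.

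Symbols, positions and exon lengths came from GENCODE mouse release M21, and 191 rows had no symbol there. In edgeR 4.0.16 (R 4.3.3) filterByExpr chose the genes to test, libraries were scaled by TMM, and glmQLFit and glmQLFTest compared the groups with no block, two-sided. A standard error is the absolute log2 fold change over the square root of F, with 95% intervals on 27.5 degrees of freedom. CPM uses the TMM-scaled totals of tested genes. Intervals rest on the scatter of these libraries, and the limits of a 0 cover counting error alone. The alternatives were RLE and plain library totals, no filter beyond 1 read, DESeq2 1.42.0, limma 3.58.1 (voom), a replicate block and each library left out. With a library left out, the single library of a group was assumed to vary like the other group. The test was also checked on simulated counts (13466 genes in the fit). In the right direction it called 23 of 49 genes changed by 1.2-fold and 32 of 50 changed by 1.3-fold, and it called 9 of 13268 unchanged genes.

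The 10 genes and the lists were chosen with earlier results of these data known. The text names all 10 genes, in each list up to 4 called genes by smallest adjusted p and the gene with the highest CPM, and the INK4 and p53 family genes. Further genes were picked with their values in view.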

Additional observations from a re-analysis of the deposited data

How the results depend on the processing

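With no low-count filter the fit tested 22906 genes with 3.36 prior degrees of freedom, against 25.5, and called 13 genes higher and 1 lower, against 456 and 393 in the reported fit. It called 0 of the 10 genes and 0 of every other list. The log2 fold changes hardly moved, at -0.33 for Trp53inp1, -0.22 for Perp, -0.28 for Sesn1 and 0.34 for Plk3. DESeq2 called 243 genes higher and 296 lower. Among the 10 genes it called 0 higher and 2 lower, since Plk3 (0.34) and Sesn1 (-0.28) did not pass. It called 0 arrest targets higher, 0 modifiers lower and 2 repair and metabolism targets lower. RLE and library totals alone each called 2 of the 10 genes higher, as Mdm2 passed (log2 fold changes 0.15 and 0.16). With library totals alone 0 modifiers were called lower, and the log2 fold change of Cdkn1a was 0.0083.

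Libraries of the same number deviated together little (correlation 0.0393), and the reported fit takes no pairs. That correlation is over all tested genes, counting noise included, so it cannot settle whether the numbers mark pairs. Under a replicate block, edgeR's estimate of the spread between libraries (coefficient of variation) was 3.14%, against 4%. Prior degrees of freedom were then without limit, against 25.5. With the replicate block 832 genes were called higher and 851 lower, 2 of the 10 genes higher (Mdm2 passed, log2 fold change 0.15, adjusted p = 0.00408), 1 modifier higher and 3 paralogs lower. Death targets called lower, here with Trp53inp1 and Perp of the 10 genes counted in, numbered 3, against 2. Eda2r, a receptor gene not called in the reported fit, passed (log2 fold change -0.18, adjusted p = 0.0323). The other calls among the 10 genes were the same under the block.

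With each library left out, genes called higher numbered 48 to 258 and genes called lower 23 to 289, both lowest without control 2. Of the 10 genes 0 were called higher and 0 to 1 lower. In these fits the modifier Hipk2 and the arrest target Plk3, a gene of the 10, lost their calls whichever library was left out. The only death target that kept its call in any of them was Trp53inp1, also a gene of the 10. Calls among repair and metabolism targets and among paralogs depended on the library left out. The log2 fold changes ran from -0.38 to -0.28 for Trp53inp1, -0.25 to -0.18 for Perp, -0.36 to -0.19 for Sesn1 and 0.28 to 0.41 for Plk3. They ran from -0.022 to 0.015 for Cdkn1a, above 0 without control 1 (0.015) or EM-plasma 2 (0.014), and from -0.12 to 0.0083 for Ccng1, above 0 without control 2. Those of Trp53, Mdm2, Mdm4 and Bbc3 kept their sign. Prior degrees of freedom were 4.71 and 4.27 without control 1 and 2 and without limit when an EM-plasma library was left out, so the fits also weigh the spread differently. In all, the direction of 8 of the 10 genes was the same in all 10 alternatives. These were the 8 genes whose groups did not overlap, so leaving out a library could hardly change their direction. The other alternatives refit the same 4 libraries. Groups did not overlap in 49.1% of all tested genes.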

Other observations

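The region of Cdkn2a on chromosome 4 was looked up after its 0 counts were seen. Within 1 Mb on each side, 29 of 40 annotated protein-coding genes had 0 reads in all 4 libraries, many of them type I interferon genes. Cdkn2b and Dmrta1 were also at 0. Mtap, which encodes a methionine salvage enzyme, ends 93389 bases short of the nearer edge of Cdkn2a, a gene on the minus strand. Mtap had 347 and 362 CPM in EM-plasma libraries and 356 and 389 CPM in controls. Klhl9, an adaptor of a ubiquitin ligase, had 112 and 111 CPM in EM-plasma libraries and 125 and 130 CPM in controls. The counts are of RNA, and whether the locus is present in the genome of these cells was not tested.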
